A study of Mus musculus with 30 samples.

Results

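The collagen genes were taken as all genes of the deposited table whose symbol has the form of a collagen alpha chain (Col, a type number, a, a chain number) and whose mean level over the 30 brains lay above 0. All 44 such genes of the table met this limit, out of 34871 genes in the table and 23695 with a mean above 0. They were grouped by structure into 10 basement membrane, 11 fibrillar, 6 beaded filament (type VI), 9 fibril-associated and 3 short-chain network collagens, 4 membrane-spanning collagens and 2 others. Col17a1 was counted both among the basement membrane and among the membrane-spanning collagens. A further group of 4 collagens known from neurons (Col19a1, Col23a1, Col24a1 and Col25a1) crosses these classes. The samples were cerebral hemispheres of 30 mice aged 8 months. Of these mice, 10 carried both copies of Tmem106b (+/+, called WT), 10 carried 1 copy (+/-, HET) and 10 carried none (-/-, KO). Tmem106b encodes a membrane protein of lysosomes, and the study used its loss to look at the brain transcriptome. Each genotype held 6 mice of cohort 1 and 4 of cohort 2, with equal numbers of females and males in each. Mice are numbered 1 to 10 within a genotype in the order of the samples. RNA of all 30 hemispheres was extracted in 1 experiment. The sources used here do not give the meaning of the cohorts, the mouse strain or how the gene was disrupted.

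Collagens are secreted or membrane-anchored proteins whose chains wind around each other as a helical trimer. In the brain most collagen lies outside the neural tissue proper, in the basement membranes of blood vessels and pia, in the fibrils of the meninges and around larger vessels, and in the choroid plexus. A few collagens are instead made by neurons and take part in the formation of synapses.

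In both genes of the main basement membrane collagen, transcription starts within the same short stretch of DNA and runs in opposite directions, so the stretch is shown first. Col4a1 and Col4a2 lie head to head on chromosome 8 (mm10), with annotated start sites 21 bases apart, and the first exons share 22 bases. The lines below give that stretch at chr8:11312801-11312830 as each gene reads it, Col4a1 on the minus strand and Col4a2 on the plus strand (RefSeq, GRCm38.p6). Capitals mark the shared 22 bases.
Col4a1: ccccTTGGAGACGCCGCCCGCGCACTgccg
Col4a2: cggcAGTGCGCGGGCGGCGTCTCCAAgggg

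The lines are the same double strand read from either side. Over the windows of 300 bases that run from 250 bases before to 50 after each start, 74.0% of the bases were G or C for Col4a1 and 73.7% for Col4a2. Windows of 35 of the 44 collagens were found. The GC box (GGGCGG, either strand) was in a window of 22 of the 35, the CCAAT box (CCAAT, either strand) in 13 and the TATA box (TATAAA, either strand) in 5. Of 32851 windows of all genes, 35.7% held the GC box, 37.4% the CCAAT box and 13.6% the TATA box. The next lines show the 250 bases before the start of Col3a1, the fibrillar collagen with the largest difference between genotypes described below, and of Col8a1 and Col8a2, whose chains form a network together and whose levels went together across mice. Capitals mark matches to these 3 motifs. They lie at chr1:45311288-45311537 on the plus strand, at chr16:57754738-57754987 on the minus strand and at chr4:126286544-126286793 on the plus strand (RefSeq, GRCm38.p6).
Col3a1: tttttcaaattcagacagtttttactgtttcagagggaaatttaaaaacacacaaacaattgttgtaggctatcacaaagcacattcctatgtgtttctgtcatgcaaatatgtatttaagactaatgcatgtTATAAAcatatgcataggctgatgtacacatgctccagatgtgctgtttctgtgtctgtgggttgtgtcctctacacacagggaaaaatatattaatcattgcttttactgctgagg
Col8a1: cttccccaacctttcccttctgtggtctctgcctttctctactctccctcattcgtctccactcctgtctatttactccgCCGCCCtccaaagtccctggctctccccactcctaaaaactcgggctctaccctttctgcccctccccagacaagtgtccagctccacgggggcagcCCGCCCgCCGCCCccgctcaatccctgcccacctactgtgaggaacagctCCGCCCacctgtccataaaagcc
Col8a2: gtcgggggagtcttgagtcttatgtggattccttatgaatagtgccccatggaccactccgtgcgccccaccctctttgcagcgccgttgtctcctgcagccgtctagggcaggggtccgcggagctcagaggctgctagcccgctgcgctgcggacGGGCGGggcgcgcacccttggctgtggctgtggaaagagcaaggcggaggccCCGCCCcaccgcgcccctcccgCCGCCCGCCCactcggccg

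Col3a1 held 1 TATA box and neither other motif in a sequence with 35.2% G or C. The Col8a1 and Col8a2 sequences each held 4 GC boxes, with 60.8% and 70.0% G or C. These matches describe the letters of the windows and say nothing about binding in these brains.

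Levels are the deposited log2 RPKM values after conditional quantile normalization, which are scaled to gene length and can be set side by side between genes, though not read as absolute RPKM. The highest mean levels over the 30 mice were those of Col6a1, a chain of the beaded filaments of collagen VI, at 6.72, Col4a2 at 6.56, Col9a3, a chain of the fibril-associated collagen IX, at 6.38, and Col4a1 at 6.26. Col25a1, a membrane-spanning collagen of neurons, stood at 6.11. Levels of 19 collagens were above 4, and those of 7 were below 1 (Col9a1, Col4a4, Col4a3, Col28a1, Col6a6, Col6a5 and Col10a1). Chains of the same collagen type, which need not share a trimer, thus spanned a wide range: in type IV from 6.56 (Col4a2) to 0.87 (Col4a3), in type VI from 6.72 (Col6a1) to 0.24 (Col6a6) and in type IX from 6.38 (Col9a3) to 0.43 (Col9a1). When the 44 collagens were put in order of level, the step to the next gene was larger than the spread between mice (the larger SD of the pair) in 8 of 43 steps, so most neighbours in the order did not differ beyond their spread.

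**Figure D1:**
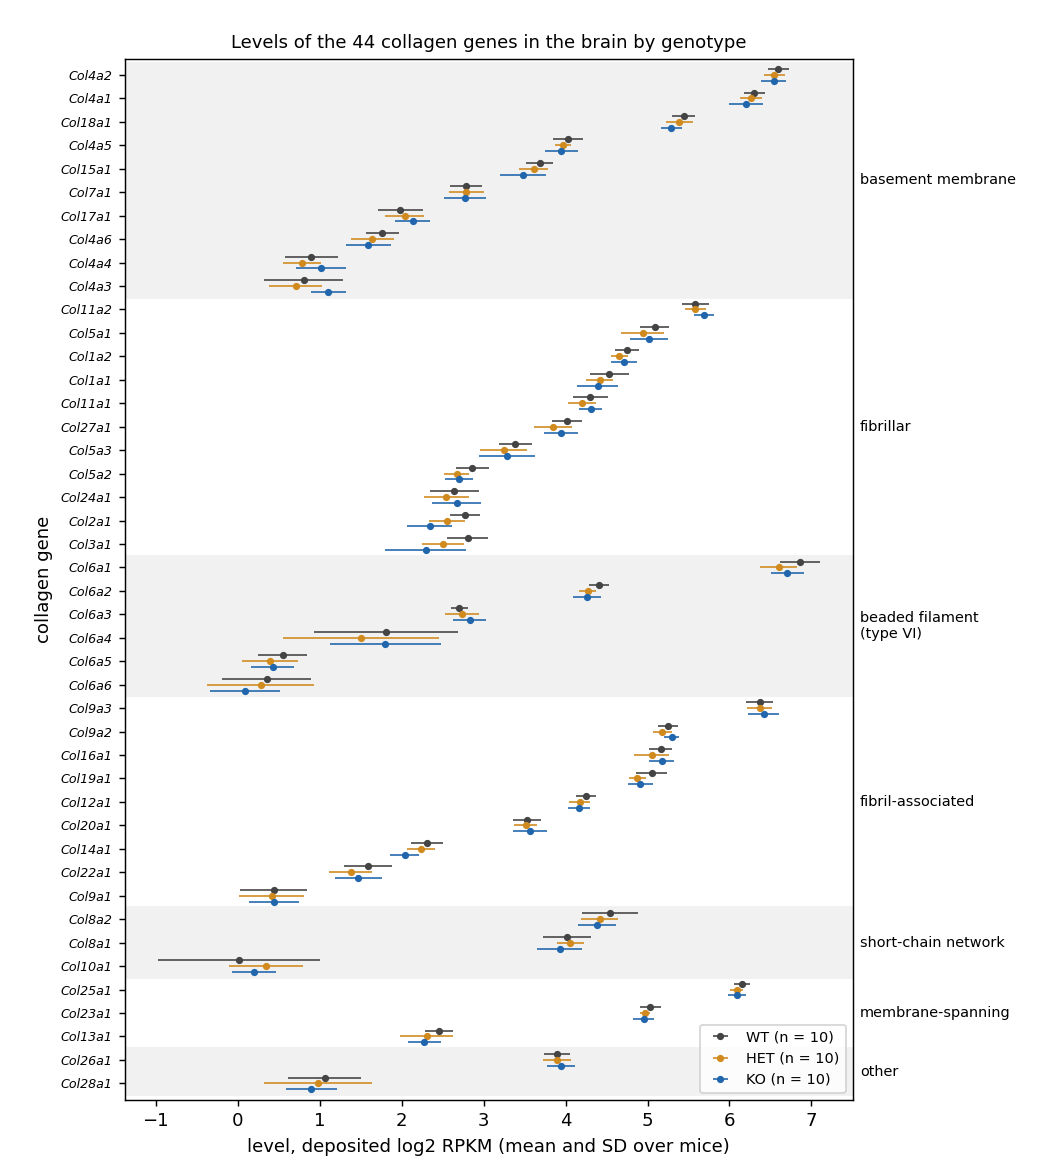
Mean level (deposited log2 RPKM, x axis) with the SD over mice of each of the 44 collagen genes (y axis, by structural class and in order of level) in WT, HET and KO brains, n = 10 each. The spans of the 3 genotypes overlap for all genes, and Col6a4 has the widest spans among genes with a mean above 1.

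Spread between mice differed among the members. The SD over all 30 mice was 0.10 for Col25a1, 0.11 for Col23a1 and 0.12 for Col9a2, and 0.40 for Col3a1. Col6a4, a type VI chain, had an SD of 0.83. Its log2 levels ran from 0.16 over a median of 2.21 to 2.60 in WT, from -0.02 over 1.79 to 2.69 in HET and from 0.59 over 1.99 to 2.57 in KO. Low and high mice occurred in every genotype.

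Which collagens went together was tested across mice for 14 pairs, chains of the same trimer, neighbours on a chromosome and comparison pairs. Col4a1 and Col4a2 were the most closely linked pair (Pearson r = 0.88, Spearman rho = 0.91, n = 30 mice, permutation p adjusted over the 14 pairs 4.67e-05 for each), with r = 0.88 in the 18 mice of cohort 1 and 0.87 in the 12 of cohort 2, and 0.86 without the 2 mice farthest from the median. The main chains of type I, Col1a1 and Col1a2, had r = 0.77 (rho = 0.78, adjusted permutation p = 4.67e-05 for each), with 0.75 in cohort 1, 0.85 in cohort 2 and 0.75 without the 2 farthest mice. The raw p of both pairs was 1e-05, the smallest that 100000 resamples can give.

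Of the 14 pairs, 10 passed an adjusted permutation p of 0.05 by r. The other 8 were Col1a1 with Col3a1 (r = 0.73), Col4a1 with Col1a1 (0.73), Col11a1 with Col11a2 (0.71), Col8a1 with Col8a2 (0.71), Col6a1 with Col6a2 (0.69), Col3a1 with Col5a2 (0.66), Col9a2 with Col9a3 (0.55) and Col4a3 with Col4a4 (0.47). Their rho lay between 0.48 and 0.77, and their adjusted permutation p was at most 0.0109 for r and 0.0115 for rho. Whether pairs of other genes pass as often was not tested. Col4a1 with Col1a1, a comparison pair of different classes, was among the 10, so passing was not particular to chains of a trimer. Within cohort 2 alone, Col3a1 with Col5a2 (0.29), Col9a2 with Col9a3 (0.45), Col4a1 with Col1a1 (0.58) and Col4a3 with Col4a4 (0.56) did not pass, and in cohort 1 alone Col4a3 with Col4a4 (0.40) did not. By rho 8 pairs passed in cohort 1 alone and 3 in cohort 2 alone, where those of the main type I, type IV and type VI chains (Col1a1 with Col1a2, Col4a1 with Col4a2 and Col6a1 with Col6a2) did. Without the 2 farthest mice, r was 0.69 for Col1a1 with Col3a1, 0.68 for Col4a1 with Col1a1, 0.65 for the type XI pair, 0.56 for the type VIII pair, 0.70 for Col6a1 with Col6a2, 0.61 for Col3a1 with Col5a2 and 0.47 for Col9a2 with Col9a3. Col4a3 with Col4a4 then stood at r = 0.38 (adjusted permutation p = 0.0572), which did not pass, and at rho = 0.41 (0.0449), which did. With sex, cohort, RNA integrity and genotype effects removed, 10 pairs passed by r and 9 by rho. In that setting Col4a3 with Col4a4 had r = 0.39 (adjusted permutation p = 0.0408) and rho = 0.35 (0.0861).

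Not all chains of a type went together. Col4a5 and Col4a6, whose start sites lie head to head 1309 bases apart on chromosome X, had r = 0.33 (adjusted permutation p = 0.0952) and rho = 0.39 (0.0426), so that only the rank measure passed. The distance of these starts stands against 72 bases between the starts of Col4a3 and Col4a4 on chromosome 1. With sex, cohort, RNA integrity and genotype effects removed, the rho of Col4a5 with Col4a6 was 0.29 (adjusted permutation p = 0.151) and did not pass. Col6a1 with Col6a3 had r = 0.24 (adjusted permutation p = 0.227), though 0.41 (0.0437) without the 2 farthest mice, and Col9a1 with Col9a2 had 0.11 (0.613). The comparison of vessel and neuronal collagens, Col4a1 with Col25a1, gave r = -0.08 (0.671).

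**Figure D2:**
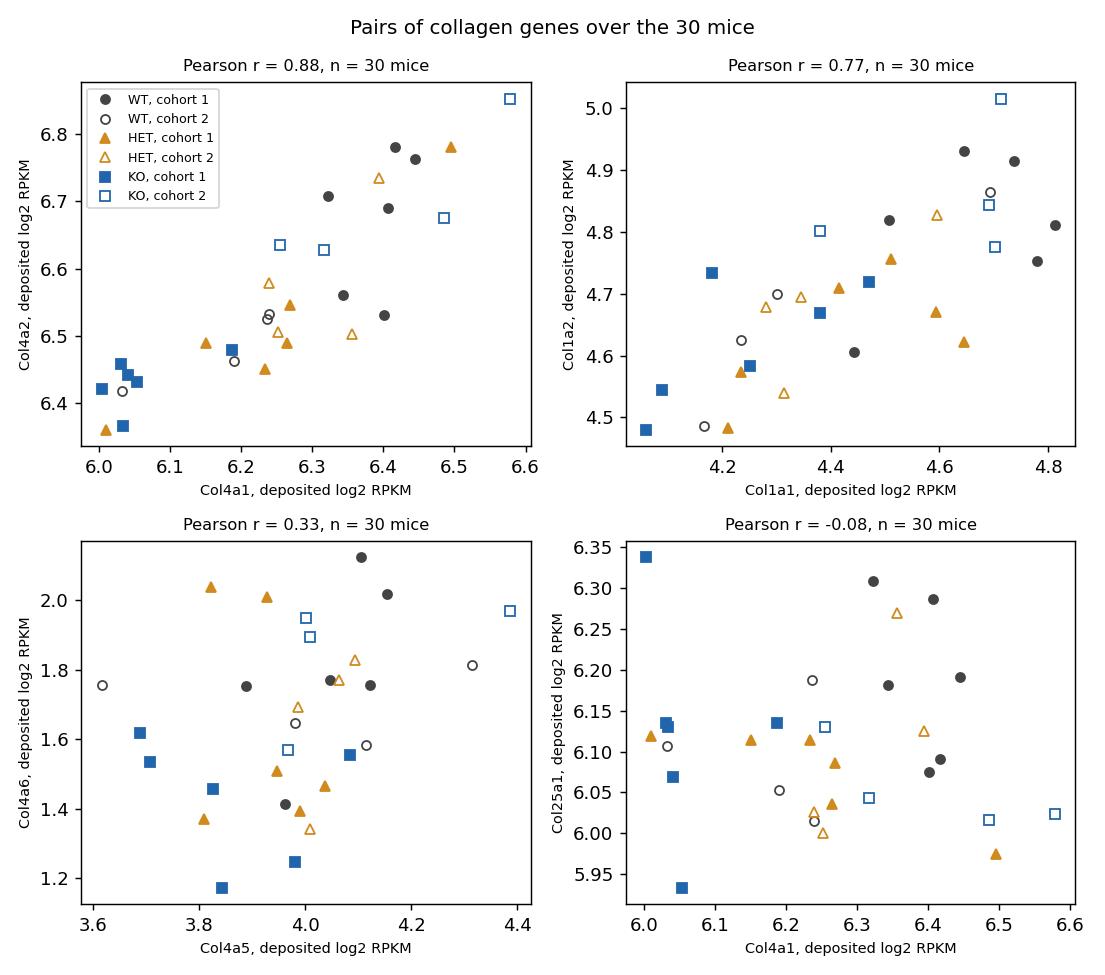
Deposited log2 RPKM of 4 pairs of collagen genes, each point a mouse, coloured by genotype, filled for cohort 1 and open for cohort 2. Col4a1 and Col4a2 (r = 0.88) and Col1a1 and Col1a2 (r = 0.77) line up across genotypes and cohorts, whereas the points of Col4a5 with Col4a6 (0.33) and Col4a1 with Col25a1 (-0.08) scatter more widely.

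The genotype labels were checked on the targeted gene. The log2 level of Tmem106b ran from 9.06 to 9.27 in WT, 8.54 to 8.62 in HET and 7.43 to 7.67 in KO, with no overlap. Library medians lay between 2.82 and 2.91 on the log2 scale. Lower quartiles of the libraries differed by sex, with a mean of -0.26 in females and -0.84 in males, which touches genes near or below 0 and so Col10a1, Col6a6 and the other low collagens first. KO mouse 9 of cohort 2 stood apart in haemoglobin and other red cell genes (mean log2 level 11.63, next highest mouse 9.46).

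No collagen passed the test between KO and WT over all 30 mice: 0 of 44 were called by limma at an adjusted p under 0.05, where 237 of all genes (1.00%) were. At an unadjusted p under 0.05 7 of 44 were lower, against 5.90% of all genes, and 1 of 44 was higher, against 6.11%. In 0 of 44 were all KO mice below all WT mice (0.0675% of all genes). The median log2 difference over the 44 was -0.08, and 30 of 44 lay below 0 (46.7% of all genes did). By class the median was -0.07 for basement membrane, -0.07 for fibrillar and -0.07 for neuronal collagens, and it was 0.01 over all genes. Whether the classes differ was not tested.

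Lowest p-values were those of a cartilage collagen and a vessel wall collagen, Col2a1 and Col3a1. Col2a1, the main fibril collagen of cartilage, had log2 levels from 2.63 over a median of 2.68 to 3.16 in WT, from 2.15 over 2.64 to 2.84 in HET and from 1.91 over 2.38 to 2.71 in KO. The log2 difference between KO and WT was -0.43 ± 0.11 (SE, adjusted p = 0.0663), and the groups overlapped. It passed when HET mouse 2 (adjusted p = 0.0493), KO mouse 7 (0.0291) or KO mouse 10 (0.0317) was left out. With any other mouse left out it did not pass, and the adjusted p was up to 0.137.

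Col3a1, the type III fibril collagen of vessel walls and soft tissue, ran from 2.37 over 2.74 to 3.23 in WT, 2.13 over 2.50 to 2.86 in HET and 1.53 over 2.18 to 3.04 in KO. Its log2 difference was -0.51 ± 0.15 (SE, adjusted p = 0.121). It passed without WT mouse 1 (adjusted p = 0.0447) or without KO mouse 10 (0.0442). With any other mouse left out it did not pass, and the adjusted p was up to 0.231. The KO range was the widest of the 3 and held both the lowest mouse of all and one near the WT top.

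Of the basement membrane collagens, Col18a1 and Col15a1, related heparan or chondroitin sulfate-bearing collagens that release antiangiogenic fragments, had the lowest p. Col18a1 ran from 5.22 over 5.44 to 5.63 in WT, 5.16 over 5.41 to 5.71 in HET and 5.06 over 5.26 to 5.47 in KO (log2 difference KO minus WT -0.15 ± 0.06, SE, adjusted p = 0.283). Col15a1 ran from 3.41 over 3.67 to 3.93 in WT, 3.30 over 3.65 to 3.82 in HET and 3.07 over 3.49 to 3.83 in KO (-0.20 ± 0.09, SE, adjusted p = 0.361). The groups overlapped for both genes.

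Neuronal collagens were not called between genotypes. Col19a1, made by interneurons, ran from 4.74 over 5.07 to 5.28 in WT, 4.63 over 4.89 to 5.0 in HET and 4.65 over 4.96 to 5.11 in KO (-0.13 ± 0.05, SE, adjusted p = 0.31). Col23a1 ran from 4.87 over 4.98 to 5.22, 4.89 over 4.94 to 5.08 and 4.76 over 4.99 to 5.12 in the same order (-0.08 ± 0.05, SE, adjusted p = 0.578). Col25a1, which is also known as a partner of amyloid beta, ran from 6.02 over 6.14 to 6.31, 5.97 over 6.10 to 6.27 and 5.93 over 6.10 to 6.34 (-0.06 ± 0.04, SE, adjusted p = 0.634). For all 3 the groups overlapped.

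The classes with chains of high level gave these values. Col6a1 ran from 6.45 over 6.89 to 7.24 in WT, 6.24 over 6.60 to 6.99 in HET and 6.47 over 6.67 to 7.07 in KO (-0.15 ± 0.08, SE, adjusted p = 0.518). Col6a2, its partner in the filament, ran from 4.19 over 4.42 to 4.63, 4.10 over 4.26 to 4.47 and 3.94 over 4.22 to 4.49 in the same order (-0.14 ± 0.06, SE, adjusted p = 0.33). The mice of the 3 genotypes covered much the same range for both.

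The type IX chain Col9a3 ran from 6.11 over 6.38 to 6.64 in WT, 6.18 over 6.36 to 6.64 in HET and 6.0 over 6.44 to 6.66 in KO, and Col9a2 from 5.14 over 5.22 to 5.48, 5.0 over 5.17 to 5.44 and 5.15 over 5.28 to 5.43. The type VIII chain Col8a1 ran from 3.27 over 4.08 to 4.33, 3.70 over 4.08 to 4.27 and 3.57 over 3.91 to 4.5. These 3 genes overlapped between genotypes too. Of the 2 collagens outside the classes, Col26a1 ran from 3.68 over 3.88 to 4.15, 3.65 over 3.87 to 4.17 and 3.66 over 3.97 to 4.25, and the low gene Col28a1 from 0.40 over 1.14 to 1.89, -0.41 over 1.16 to 1.64 and 0.59 over 0.80 to 1.35.

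Loss of 1 copy called no collagen either. HET against WT gave 0 of 44 in limma (1 gene in all, 0.00422%, which is Tmem106b) and 4 of 44 at an unadjusted p under 0.05 (6.32% of all genes), and KO against HET 0 of 44 (28 genes, 0.118%) and 4 of 44 (8.66%), with 18 of 44 below 0 (48.2% of all genes). The difference between HET and WT lay below 0 for 38 of 44 collagens (48.5% of all genes), with a median of -0.10. The largest were Col10a1 at 0.32, Col6a4 at -0.33, Col3a1 at -0.29 and Col6a1 at -0.25. Col10a1 is a low gene, and WT mouse 10 lay far below the other WT mice for it (-2.35, next -0.41). HET and KO were set against the same WT mice, so these counts are not independent of those for KO. Between females and males 0 of 44 were called (79 genes, 0.333%), and 3 of 44 at an unadjusted p under 0.05 (12.5%).

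The comparison of KO with WT was then made within each cohort. In cohort 1 levels of Col3a1, Col4a1, Col2a1, Col1a1 and Col4a2 were lower in KO than in WT. In cohort 2 Col4a1 and Col4a2 were higher in every KO mouse than in every WT mouse, though no collagen was called there. The difference between the cohorts passed the test for Col4a1.

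Within cohort 1 (6 KO and 6 WT mice) 5 of 44 collagens fell and 0 rose (482 genes were called, 2.03%, with 1.17% lower). At an unadjusted p under 0.05 there were 19 of 44, all lower, against 7.49% of all genes that were lower. Within cohort 2 (4 and 4 mice) 0 of 44 were called by limma (4 genes, 0.0169%), and 3 of 44 at an unadjusted p under 0.05, all higher (2.35% of all genes were higher). The log2 difference lay below 0 for 37 of 44 collagens in cohort 1 (47.9% of all genes) and for 12 of 44 in cohort 2 (48.5%). HET mice of cohort 1 gave 0 of 44 against the same WT mice (1 gene, 0.00422%) and 13 of 44 at an unadjusted p under 0.05, all lower (4.29% of all genes were lower), with 36 of 44 below 0 (49.0%). For 27 collagens the difference between KO and WT was below 0 in cohort 1 and above 0 in cohort 2, as for 24.1% of all genes.

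Among basement membrane collagens, Col4a1 (chromosome 8, 11198423 to 11312826, mm10), which pairs with Col4a2 in the most common type IV network, changed most clearly. In cohort 1 its log2 level ran from 6.32 over a median of 6.40 to 6.44 in WT, from 6.01 over 6.25 to 6.50 in HET and from 6.0 over 6.04 to 6.19 in KO. In cohort 2 the 4 WT mice stood at 6.19, 6.03, 6.24 and 6.24, and the 4 KO mice at 6.25, 6.32, 6.49 and 6.58, with HET mice from 6.24 to 6.39. All KO mice lay below all WT mice in cohort 1 and above them in cohort 2. HET mice of cohort 1 overlapped both. In cohort 2 all HET mice also lay above all WT mice, though barely (lowest HET 6.2396, highest WT 6.2393). The share of all genes with such a gap between HET and WT is not given here.

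The log2 difference of Col4a1 between KO and WT was -0.33 ± 0.06 (SE, adjusted p = 0.00708) in cohort 1 and 0.22 ± 0.07 (SE, adjusted p = 0.867) in cohort 2. The change of this difference from cohort 1 to cohort 2 was 0.55 ± 0.09 (SE, adjusted p = 0.0116). It had the second lowest p of all 23695 genes in that test, which called 8 genes in all (0.0338%) and 1 of 44 collagens. At an unadjusted p under 0.05 there were 15 of 44, all higher, against 4.15% of all genes that were higher, and 6 of 44 lay below 0 (50.6% of all genes). The Col4a1 value was 0.55 (adjusted p = 0.0397) without KO mouse 9, the mouse with high red cell genes. It missed the threshold without WT mouse 1 (adjusted p = 0.0544), without KO mouse 10 (0.0552), in females alone (0.70, adjusted p = 0.0995) and in males alone (0.40, adjusted p = 0.553). Both of these mice belonged to cohort 2.

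Col4a2 (chromosome 8, 11312805 to 11449287, mm10) followed the same course. In cohort 1 its log2 level ran from 6.53 over 6.70 to 6.78 in WT, 6.36 over 6.49 to 6.78 in HET and 6.37 over 6.44 to 6.48 in KO. In cohort 2 the WT mice stood at 6.46, 6.42, 6.53 and 6.53, the KO mice at 6.64, 6.63, 6.68 and 6.85 and HET mice from 6.50 to 6.74. As for Col4a1, KO and WT mice did not overlap in either cohort.

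The log2 difference of Col4a2 was -0.24 ± 0.06 (SE, adjusted p = 0.044) in cohort 1 and 0.21 ± 0.07 (SE, adjusted p = 0.927) in cohort 2, and its change between the cohorts, 0.45 ± 0.09, had an adjusted p of 0.0741. It passed with only WT and KO in the fit (adjusted p = 0.0278), whereas it stayed uncalled in 39 of 43 alternatives. The call in cohort 1 held in 14 of 29 alternatives. Reads from the short overlap of Col4a1 and Col4a2 cannot be told apart without strand, which is not given in the sources used here, and 22 of the 44 collagens overlap another gene of the table. Among those named here these are Col4a1, Col4a2, Col5a1, Col15a1, Col18a1, Col19a1 and Col27a1, among others.

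The remaining basement membrane collagens were not called in either cohort. Col15a1 had a log2 difference of -0.42 ± 0.11 in cohort 1 (adjusted p = 0.0606) and 0.15 ± 0.11 in cohort 2, and Col18a1 -0.20 ± 0.07 and -0.08 ± 0.11. Col4a5 stood at -0.19 and 0.12, Col4a6 at -0.37 and 0.18 and Col4a4 at -0.11 and 0.48. Col7a1, of the anchoring fibrils of skin, was at -0.09 and 0.09. The exceptions to a lower value in cohort 1 were Col17a1, of hemidesmosomes (0.23 and 0.05), and Col4a3 (0.06 and 0.65). For the class the median log2 difference was -0.20 in cohort 1 and 0.16 in cohort 2, with 0.01 and 0.00 over all genes.

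**Figure D3:**
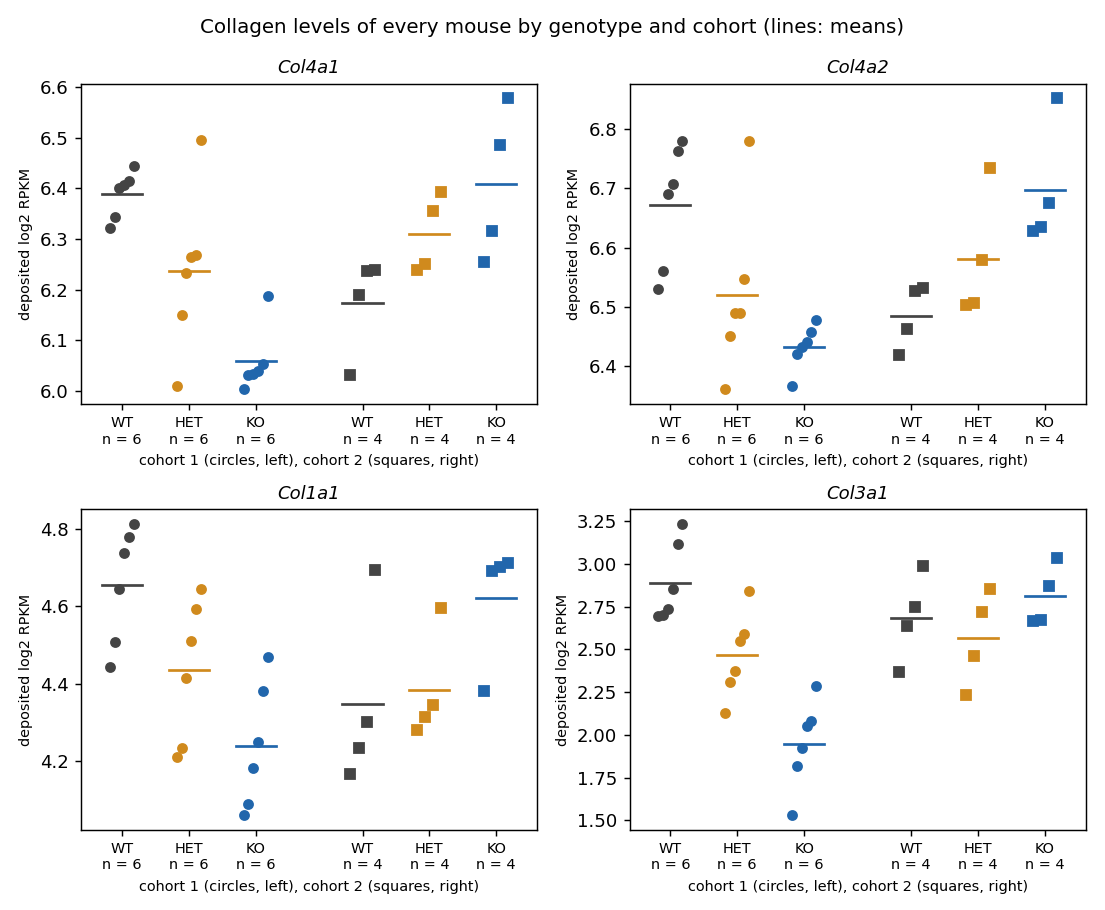
Deposited log2 RPKM of Col4a1, Col4a2, Col1a1 and Col3a1 in every mouse (y axes, which differ between panels and do not start at 0) by genotype, with cohort 1 as circles on the left and cohort 2 as squares on the right, and lines at the group means. In cohort 1 the KO points of Col4a1 (6.0 to 6.19) lie below the WT points (6.32 to 6.44), and in cohort 2 (6.25 to 6.58) above them (6.03 to 6.24).

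Fibrillar collagens fell in cohort 1 for 3 of 11 members. For Col3a1 (chromosome 1, 45311538 to 45349706, mm10) log2 levels in cohort 1 ran from 2.69 over 2.80 to 3.23 in WT, 2.13 over 2.46 to 2.84 in HET and 1.53 over 1.99 to 2.29 in KO. In cohort 2 WT mice stood at 2.37, 2.64, 2.99 and 2.75, KO mice at 2.87, 2.67, 2.67 and 3.04 and HET mice from 2.23 to 2.86. KO and WT did not overlap in cohort 1 and overlapped in cohort 2.

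The log2 difference of Col3a1 between KO and WT was -0.94 ± 0.16 (SE, adjusted p = 0.00711) in cohort 1, the largest fall of any collagen there, and 0.13 ± 0.21 (SE, adjusted p = 0.999) in cohort 2. The call in cohort 1 held in 29 of 29 alternatives, as did that of Col4a1. The change between the cohorts was 1.08 ± 0.24 (SE) and did not pass (adjusted p = 0.105).

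Col2a1 (chromosome 15, 97975602 to 98004695, mm10) ran in cohort 1 from 2.64 over 2.85 to 3.16 in WT, 2.30 over 2.68 to 2.84 in HET and 1.91 over 2.18 to 2.38 in KO. In cohort 2 the WT mice stood at 2.68, 2.65, 2.64 and 2.63 and the KO mice at 2.50, 2.62, 2.56 and 2.71, with HET mice from 2.15 to 2.60. KO and WT were apart in cohort 1 and overlapped in cohort 2, where every HET mouse lay below every WT mouse, though barely (highest HET 2.60, lowest WT 2.63). The share of all genes with such a gap between HET and WT is not given here. The log2 difference between KO and WT was -0.69 ± 0.14 (SE, adjusted p = 0.0174) in cohort 1, against -0.05 ± 0.17 (SE, adjusted p = 0.999) in cohort 2. The change between the cohorts, 0.64 ± 0.19, did not pass (adjusted p = 0.297). Of 7 markers of bone and cartilage, 4 had a mean above 0, and 0 of these were called in cohort 1.

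Col1a1 (chromosome 11, 94936224 to 94953042, mm10), of type I fibrils, ran in cohort 1 from 4.44 over 4.69 to 4.81 in WT, 4.21 over 4.46 to 4.65 in HET and 4.06 over 4.22 to 4.47 in KO. In cohort 2 WT mice stood at 4.17, 4.30, 4.69 and 4.23, KO mice at 4.69, 4.38, 4.71 and 4.70 and HET mice from 4.28 to 4.6. The groups overlapped in both cohorts. The log2 difference was -0.41 ± 0.09 (SE, adjusted p = 0.031) in cohort 1 and 0.28 ± 0.13 (SE, adjusted p = 0.999) in cohort 2, with a change between the cohorts of 0.69 ± 0.15 (SE, adjusted p = 0.105). The call in cohort 1 held in 21 of 29 alternatives.

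Its partner Col1a2 was not called (-0.18 ± 0.07, adjusted p = 0.196, in cohort 1 and 0.19 ± 0.10 in cohort 2). The other fibrillar collagens were not called either: Col5a1, Col5a2 and Col5a3, of the type V chains that limit fibril width, stood at -0.16, -0.27 and -0.35 in cohort 1 and 0.06, 0.02 and 0.24 in cohort 2. Col11a2 was the 1 fibrillar collagen above 0 in cohort 1 (0.11, and 0.10 in cohort 2). The class median was -0.18 and 0.10.

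**Figure D4:**
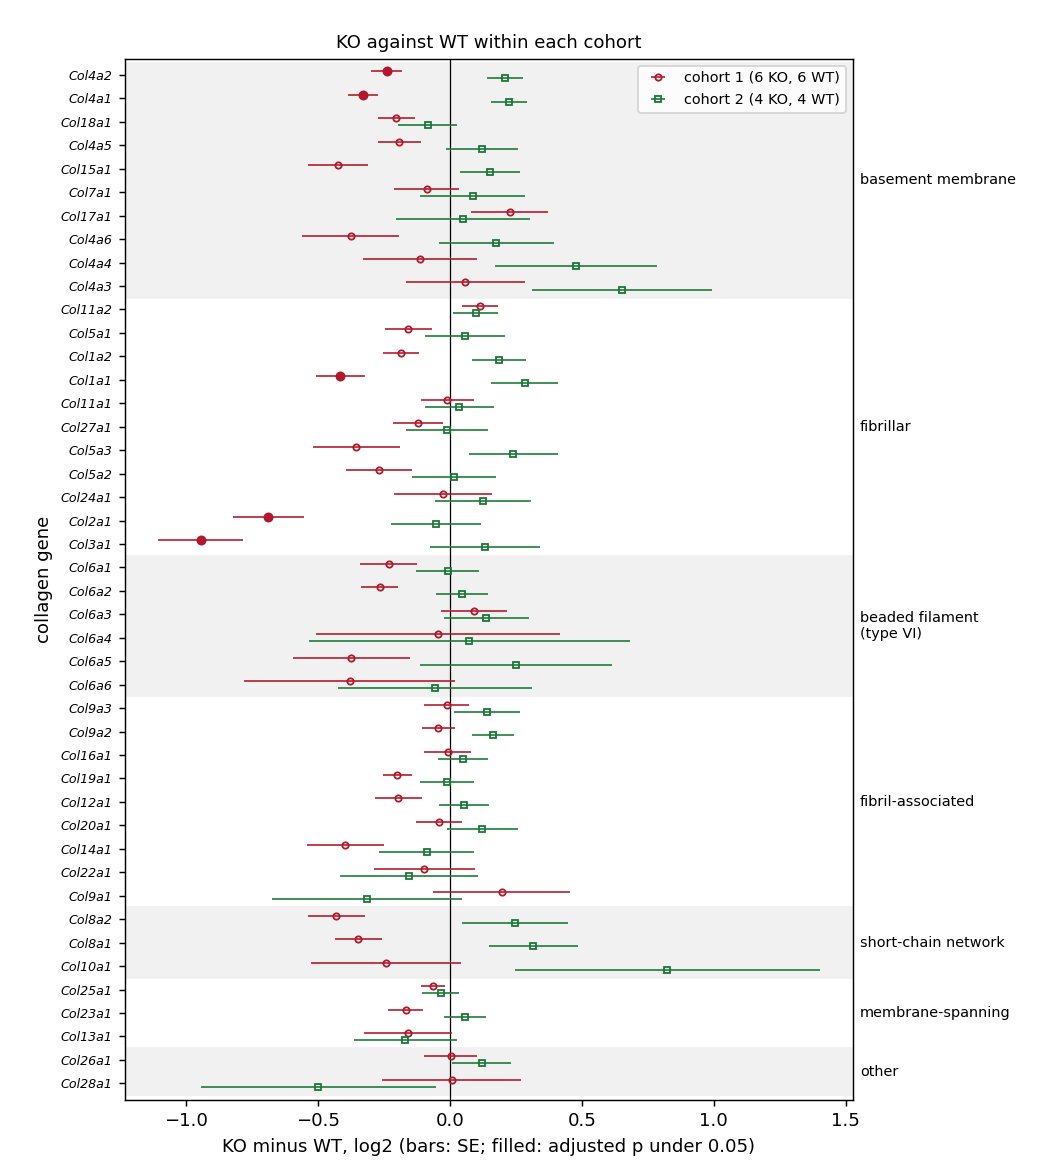
Log2 difference between KO and WT (x axis, bars are SE) of each of the 44 collagen genes (y axis, by class) within cohort 1 (red circles, 6 and 6 mice) and cohort 2 (green squares, 4 and 4 mice), with filled symbols for an adjusted p under 0.05. Filled symbols are those of Col4a2, Col4a1, Col1a1, Col2a1 and Col3a1 in cohort 1, and 27 genes lie below 0 in cohort 1 and above 0 in cohort 2.

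Of the 4 neuronal collagens, 0 were called by limma in either cohort. Col19a1 had a log2 difference of -0.20 ± 0.06 in cohort 1 (adjusted p = 0.0712) and -0.01 ± 0.10 in cohort 2, Col23a1 -0.17 ± 0.07 and 0.06 ± 0.08, Col25a1 -0.06 ± 0.05 and -0.03 ± 0.07, and Col24a1, a fibrillar collagen, -0.02 ± 0.19 and 0.13 ± 0.18. The median change of the difference between the cohorts was 0.16 for neuronal, 0.49 for basement membrane and 0.28 for fibrillar collagens, and 0.00 over all genes. Whether these medians differ between classes was not tested.

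The other classes gave the following values. The type VIII chains Col8a2 and Col8a1, which form hexagonal networks in vessel walls and the cornea, came close to a call in cohort 1 (-0.43 ± 0.11, adjusted p = 0.05, and -0.35 ± 0.09, adjusted p = 0.0556) and stood at 0.25 ± 0.20 and 0.32 ± 0.17 in cohort 2. For Col8a2 log2 levels in cohort 1 ran from 4.45 over 4.67 to 4.90 in WT and 4.11 over 4.23 to 4.39 in KO. Those did not overlap. In cohort 2 they ran from 3.68 to 4.70 in WT and from 4.28 to 4.74 in KO.

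Of the type VI chains, Col6a2 was also lower in every KO than in every WT mouse of cohort 1 (3.94 over 4.16 to 4.24 against 4.28 over 4.39 to 4.63; log2 difference -0.27 ± 0.07, adjusted p = 0.0595) and stood at 0.05 ± 0.10 in cohort 2. Col6a1 had -0.23 ± 0.11 and -0.01 ± 0.12. Col9a3 and Col9a2, the type IX chains with high levels, had -0.01 ± 0.08 and -0.04 ± 0.06 in cohort 1 and 0.14 ± 0.12 and 0.17 ± 0.08 in cohort 2. In all, 6 of 44 collagens were lower in every KO than in every WT mouse of cohort 1 (1.09% of all genes), namely Col3a1, Col8a2, Col4a1, Col4a2, Col6a2 and Col2a1. In cohort 2, 4 of 44 were higher in every KO mouse (1.10%), namely Col4a1, Col4a2, Col9a2 and the low gene Col4a3.

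The cohorts were also set against each other within a genotype. In WT mice Col4a1 fell from cohort 1 to cohort 2 (log2 difference -0.21 ± 0.04, SE, adjusted p = 0.0409), and it was the 1 collagen called of 44 (338 genes, 1.43%, with 0.823% lower). In KO mice it stood at 0.34 ± 0.07 (SE, adjusted p = 0.0667), and 0 of 44 were called by limma (4 genes, 0.0169%), with 18 of 44 at an unadjusted p under 0.05, all higher (8.28% of all genes were higher). The difference lay below 0 for 5 of 44 collagens in KO mice (48.8% of all genes), 27 of 44 in WT mice (49.4%) and 22 of 44 in HET mice (50.3%). In HET mice 0 of 44 were called (0 genes of all) and 0 of 44 at an unadjusted p under 0.05 (6.74% of all genes). Each group of this comparison holds 6 mice of cohort 1 and 4 of cohort 2. The WT and KO values share no mice with each other, whereas each shares its mice with the comparison of KO with WT.

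Markers of cells that make collagens were set beside these differences, as a mean log2 level per mouse. For meningeal and perivascular fibroblasts the mean was 6.32 in WT and 6.15 in KO of cohort 1, and 6.19 and 6.33 in cohort 2. For endothelial cells it was 6.18 and 6.01 in cohort 1 and 6.16 and 6.23 in cohort 2, for mural cells 6.24 and 6.12, then 6.41 and 6.41, and for choroid plexus epithelium 5.65 and 5.31, then 5.37 and 5.53. All markers of these 4 lists (11, 11, 9 and 13 genes) had a mean above 0. In cohort 2 the order of the choroid plexus means turned on 1 mouse, and most of the endothelial difference rested on 1 mouse. Without WT mouse 10 the choroid plexus mean of WT was 5.57, above that of KO. Without KO mouse 9 the endothelial mean of KO was 6.17, still above the 6.16 of WT. In cohort 1 the choroid plexus mean of KO was 5.45 without KO mouse 5.

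As log2 of the summed level, fibroblast markers ran from 10.11 to 10.37 in WT and 9.96 to 10.11 in KO of cohort 1, and from 9.94 to 10.24 and 10.14 to 10.44 in cohort 2. The fibroblast groups of cohort 1 were apart, though barely (lowest WT 10.113, highest KO 10.110). Endothelial markers ran from 10.46 to 10.54 and 10.10 to 10.26 in cohort 1, where the groups were also apart, and from 10.32 to 10.49 and 10.36 to 10.63 in cohort 2. Mural markers ran from 10.22 to 10.44 and 10.10 to 10.36, then 10.39 to 10.49 and 10.38 to 10.46, and choroid plexus markers from 12.86 to 13.05 and 12.13 to 12.96, then 12.30 to 13.09 and 12.64 to 12.97. In cohort 1, 4 of 11 endothelial (Cldn5, Pecam1, Kdr and Tek), 3 of 11 fibroblast (Slc6a13, Igf2 and Dcn), 1 of 9 mural (Pdgfrb) and 2 of 13 choroid plexus markers (Folr1 and Kl) fell and 0 rose. Of all genes 1.17% were lower in KO of cohort 1 at this threshold. In cohort 2 none of these markers was called. Their part in the collagen differences was not tested. In RNA of whole hemispheres fewer cells of a type and less RNA per cell cannot be told apart.

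Besides Col4a1, the 8 genes whose difference between KO and WT changed with the cohort held Mmp14, Cldn5 and Igf2 of the lists used here. Mmp14, a membrane-bound protease that cleaves fibrillar collagen and activates Mmp2, had the lowest p of all genes. Its log2 level ran in cohort 1 from 5.96 over 6.05 to 6.16 in WT and 5.24 over 5.42 to 5.55 in KO, and in cohort 2 from 5.47 to 5.97 in WT and 5.78 to 6.13 in KO. The log2 difference was -0.64 in cohort 1 and 0.26 in cohort 2, and its change 0.90 ± 0.14 (SE, adjusted p = 0.0116).

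Cldn5, the tight junction protein of brain endothelium, changed from -0.80 to 0.09 (0.90 ± 0.16, SE, adjusted p = 0.0338). Igf2, a growth factor of meninges and choroid plexus, changed from -0.31 to 0.41 (0.71 ± 0.13, SE, adjusted p = 0.0348). Without WT mouse 1 or without KO mouse 10 the call of Mmp14 was lost (adjusted p = 0.0544 and 0.0542), as for Col4a1, and it held without any other mouse. The calls of Cldn5 and Igf2 were less steady. That of Cldn5 was lost in 13 of the 30 fits that left out 1 mouse and in 16 of 43 alternatives in all, and that of Igf2 in 15 of 30 and 21 of 43. For both the highest adjusted p with 1 mouse left out was 0.125, without KO mouse 10, and without KO mouse 9 it was 0.0977.

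Genes that fold, process, bind and break down collagen were set beside the collagens. In KO against WT over all mice, 0 were called of 19 measured folding and hydroxylation genes, 13 of maturation and crosslinking, 16 laminins and other basement membrane partners, 9 receptors, 8 of degradation and 8 small leucine-rich proteoglycans. In cohort 1, 2 of 8 degradation genes fell, Mmp14 and the gelatinase Mmp2 (-0.47, adjusted p = 0.0282), as did 2 of 8 proteoglycans, Prelp (-0.28, adjusted p = 0.0025) and Dcn (-0.24, adjusted p = 0.0314), which bind collagen fibrils. Of the folding genes 1 of 19 fell there, Crtap, a part of the prolyl 3-hydroxylase complex (-0.28, adjusted p = 0.0106). Called in cohort 1 were 0 of 13 maturation genes, 0 of 16 basement membrane partners and 0 of 9 receptors. There 1.17% of all genes were lower. In cohort 2, 0 genes of these 6 lists were called. The median log2 difference in cohort 1 was -0.03 for folding, -0.15 for maturation, -0.08 for basement membrane partners, -0.14 for receptors, -0.16 for degradation and -0.21 for proteoglycans.

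Between the cohorts over all genotypes, 4 collagens were higher in cohort 2 and 1 was lower. Higher were 8.09% of all genes and lower 9.42%. The 5 of 44 make 11.4%, where 17.5% of all genes (4150) were called, so the share was not above the background. Those that rose were Col5a1, Col27a1, Col11a2 and Col16a1, and Col19a1 fell. The median log2 difference was 0.14 for fibrillar, 0.10 for basement membrane and -0.04 for neuronal collagens, and 0.01 over all genes. Of the 44, 12 lay below 0 (47.8% of all genes).

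Col5a1 (chromosome 2, 27886425 to 28039514, mm10) rose by 0.26 ± 0.07 (SE, adjusted p = 0.0118). In WT its log2 level ran in cohort 1 from 4.77 over 5.05 to 5.21 and in cohort 2 from 5.04 to 5.46, in HET from 4.56 over 4.89 to 4.97 and then from 4.71 to 5.44, and in KO from 4.57 over 4.92 to 5.01 and then from 5.11 to 5.36. The cohorts were apart in KO mice and overlapped in WT and HET mice. The share of all genes with such a gap between cohorts was not computed, so it is not read as particular to this gene.

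Col27a1, a minor fibrillar collagen (chromosome 4, 63214004 to 63334991, mm10), rose by 0.23 ± 0.07 (SE, adjusted p = 0.0162). Its log2 level ran in WT from 3.63 over 3.98 to 4.12, then 3.95 to 4.33, in HET from 3.57 over 3.77 to 3.94, then 3.61 to 4.27, and in KO from 3.61 over 3.84 to 4.02, then 4.04 to 4.23. Again only KO mice were apart.

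Col16a1, which binds to the surface of fibrils (chromosome 4, 130047840 to 130099283, mm10), rose by 0.20 ± 0.05 (SE, adjusted p = 0.00969). It ran in WT from 4.84 over 5.13 to 5.25, then 5.16 to 5.35, in HET from 4.69 over 4.92 to 5.19, then 4.99 to 5.38, and in KO from 4.94 over 5.07 to 5.25, then 5.21 to 5.42. The cohorts overlapped in each genotype. Col11a2, of the type XI fibrils in the core of cartilage fibrils (chromosome 17, 34039437 to 34066685, mm10), rose by 0.15 ± 0.04 (SE, adjusted p = 0.0137), with levels in WT from 5.25 over 5.53 to 5.71, then 5.53 to 5.83, and in KO from 5.50 over 5.61 to 5.77, then 5.62 to 5.88. Col6a1 stood close to the threshold (0.20 ± 0.07, SE, adjusted p = 0.0514).

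Col19a1 (chromosome 1, 24261890 to 24587472, mm10) fell by 0.16 ± 0.05 on the log2 scale (SE, adjusted p = 0.0195). It ran in WT from 5.04 over 5.18 to 5.28 in cohort 1 and from 4.74 to 5.05 in cohort 2, in HET from 4.82 over 4.91 to 5.0, then 4.63 to 4.93, and in KO from 4.90 over 4.96 to 5.11, then 4.65 to 5.01. The cohorts overlapped in each genotype, and the call was lost without WT mouse 7 (adjusted p = 0.0533). Col25a1 (-0.06), Col23a1 (-0.03) and Col24a1 (0.23) were not called, so the neuronal collagens did not share a direction.

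**Figure D5:**
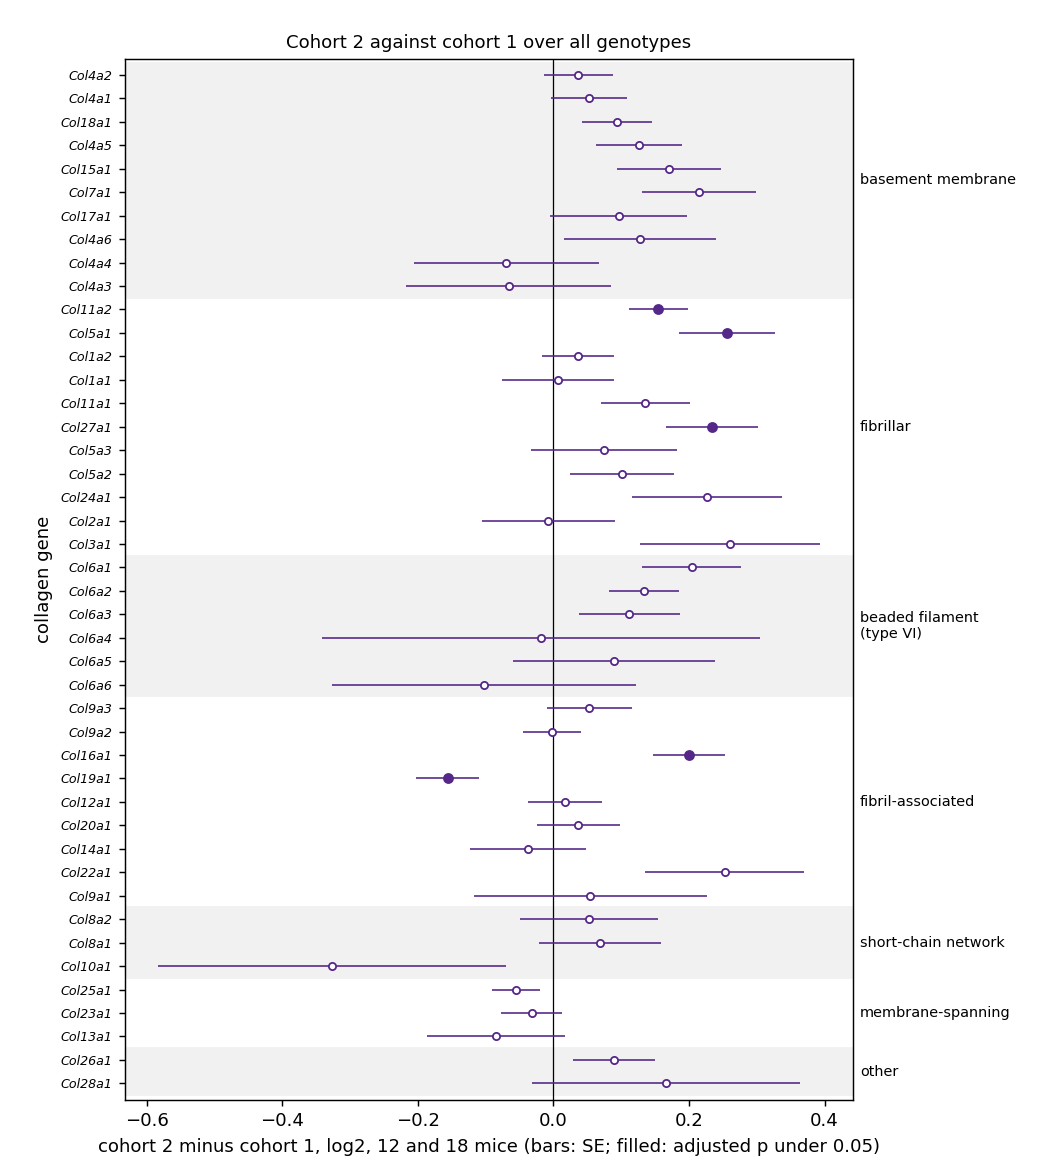
Log2 difference between cohort 2 (12 mice) and cohort 1 (18 mice) over all genotypes (x axis, bars are SE) of each of the 44 collagen genes (y axis, by class), filled where the adjusted p was under 0.05. Col11a2, Col5a1, Col27a1 and Col16a1 are filled on the right of 0 and Col19a1 on the left.

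Markers of mural and endothelial cells were in part higher in cohort 2, where 8.09% of all genes were higher. Of 9 mural markers 6 rose (Rgs5, Acta2, Myh11, Tagln, Kcnj8 and Notch3, with Acta2 at 0.40 and a list median of 0.12) and of 11 endothelial markers 4 rose (Ly6c1, Flt1, Pecam1 and Esam, list median 0.08), and 0 of either fell. The mean level of the endothelial list went from 6.18 to 6.16 in WT, 6.10 to 6.21 in HET and 6.01 to 6.23 in KO, so it did not rise in WT. That of the mural list went from 6.24 to 6.41 in WT, 6.17 to 6.31 in HET and 6.12 to 6.41 in KO. Of 11 fibroblast and 13 choroid plexus markers 0 were called. Their part in the cohort difference of the collagens was not tested. Of the genes that act on collagen, Timp1, an inhibitor of metalloproteinases, rose (0.58, adjusted p = 0.0124), as did Pcolce2, which enhances the removal of the procollagen end piece (0.16, adjusted p = 0.0474), and Mia3, which loads procollagen into transport carriers, fell by 0.05 (adjusted p = 0.0383).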

How the data were processed

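RNA sequencing of 30 mouse hemispheres was available as 1 table of log2 RPKM values after conditional quantile normalization (cqn), as the authors deposited it, with the exon length of each gene. Per the submitters' processing notes, TopHat2 2.0.12 and Bowtie 1.1.0 were used with mm10. The sources used here name no counting tool, annotation or strand setting. Counts are not in the table, so the depth per sample is unknown and no counting interval is given. Normalization for length, GC and quantiles makes levels comparable but hides global shifts, and log2 values near or below 0 are imprecise.

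Genes with a mean above 0 (23695 of 34871) were fitted with limma 3.58.1 (R 4.3.3) on genotype, sex, cohort and RNA integrity number (RIN) with an intensity trend, and p-values were adjusted over all of them by Benjamini-Hochberg (threshold 0.05). A second model added the interaction of genotype and cohort. Further fits were made within a cohort or genotype. In simulated tables the share of changed genes recovered was checked. Correlations of 14 gene pairs used 100000 permutations, on both sides (Python 3.11.15, numpy 2.4.6, scipy 1.17.1). Coordinates come from the table and the GENCODE annotation of mm10, and promoter windows from RefSeq.

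Mouse values are given for collagens called in any comparison, for the 2 with the highest mean of each class and for the 2 with the lowest p between KO and WT of the basement membrane, fibrillar and neuronal classes. Genes of other lists are named where called (at most 6 per list and comparison). The printed promoters and the TATA motif were chosen after values were seen. Members and lists were chosen with earlier results of these data known. P-values rest on the spread between these mice. Alternatives were other filters, scalings, covariates and variance models, each cohort or sex alone and leaving out each mouse.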

Additional observations from a re-analysis of the deposited data

Results flagged for a closer look

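In 14 of 132 groups of 10 mice (44 collagens, 3 genotypes) 1 mouse lay far from the other 9 (Dixon's test). Independent, normally spread values would give about 1 in 20 groups, but these groups share mice and hold genes that go together. The share over all genes was not computed, so the count is not read as particular to collagens. WT mouse 10 was low for Col8a2 (3.68, next 4.40), Col8a1 (3.27, next 3.86) and the low gene Col10a1 (-2.35, next -0.41). HET mouse 5 was low for Col8a2 (3.90, next 4.27), Col8a1 (3.70, next 3.97) and Col5a3 (2.57, next 3.07). Of all 30 mice these had the lowest mean level of fibroblast markers (6.06 in WT mouse 10 and 6.07 in HET mouse 5), and their choroid plexus markers stood at 4.78 and 5.11. The part of these cells was not tested.

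HET mouse 8 was high for Col11a2 (5.90, next 5.66) and Col9a2 (5.44, next 5.22). Col25a1 was high in HET mouse 2 (6.27) and KO mouse 6 (6.34), Col20a1 in HET mouse 4 (3.82), Col13a1 in KO mouse 3 (2.78) and the low gene Col6a6 in WT mouse 4 (1.69). Col19a1 was low in HET mouse 7 (4.63).

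The log2 difference between KO and WT changed from cohort 1 to cohort 2, by the interaction in limma, for Col4a1 (0.55), Mmp14 (0.90), Igf2 (0.71) and Cldn5 (0.90).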

How the results depend on the processing

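No paired analysis was possible because the labels give no replicate numbers. The count of collagens called between KO and WT, 0, was 1 after a further quantile normalization, 1 without the intensity trend, 1 with array weights, 5 in cohort 1 alone and 0 to 2 when a mouse was left out. It was 2 without KO mouse 10 and 1 without WT mouse 1, HET mouse 2 or KO mouse 7. In cohort 2 alone the median log2 difference from WT was 0.16 for basement membrane and 0.098 for fibrillar collagens in KO, and 0.099 for basement membrane collagens in HET. With no filter 1 collagen differed between the sexes.

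For the change of the difference between KO and WT from cohort 1 to cohort 2, 1 collagen was called, and 0 in females alone, 0 in males alone, 2 with only WT and KO in the fit and 0 to 3 when a mouse was left out (0 without WT mouse 1 or KO mouse 10, 2 without HET mouse 4 or 8, 3 without WT mouse 3). The basement membrane median, 0.49, was 0.30 with a filter at a mean above 2 and 0.32 in females alone. Within cohort 1 the 5 calls became 8 with a filter at a mean above 1, 9 at a mean above 2, 3 with only WT and KO and 3 to 8 when a mouse was left out (8 without WT mouse 2, 3 without WT mouse 4, 5 or 6 or KO mouse 1, 3 or 6). Between the cohorts 5 calls became 5 to 8 (8 without WT mouse 10). Of the 10 pairs that passed by r, 6 did in cohort 2 alone, and 3 by rho. Apart from stricter filters (fewer genes tested) and fewer mice, the cause was not tested. No called value changed sign, whereas the basement membrane and fibrillar medians in KO and the basement membrane median in HET lay above 0 in cohort 2 alone. The fibrillar median of HET against WT stayed below 0 in all 45 alternatives (-0.19 to -0.09). Fits within a cohort, single sexes and fits of WT and KO alone were chosen as alternatives for the cohort results after seeing the data.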
